A study of Mus musculus with 16 samples.

Results

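The RNA exosome is a ribonuclease complex that trims and destroys RNA from its 3′ end, and this account describes 9 of its subunit genes in mouse hippocampus: Exosc1, Exosc2, Exosc3, Exosc4, Exosc5, Exosc7, Exosc8, Exosc9 and Exosc10. They were chosen by name, with earlier results of these data known, out of 18193 genes that the array's annotation gives as the single symbol of a probe set. The annotation gives them 18 probe sets, of which 16 passed the filter on low values (over 4 log2 on at least 4 arrays), and each of the 9 genes had at least 1 that passed. The 2 that did not pass were 1432052_at of Exosc1, at 2.93 to 3.51 log2 over the arrays, and 1446994_at of Exosc2, at 1.97 to 2.07 log2.

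Hippocampal RNA of 16 male mice aged 12 months was measured on 16 Affymetrix arrays, 1 mouse per array and 4 mice per group. The groups are SAMP8 mice given an intravenous antisense oligonucleotide against the amyloid beta precursor protein (AβPP antisense), SAMP8 mice given an oligonucleotide of random sequence by the same route (Random antisense), untreated SAMP8 mice (SAMP8), and untreated mice of a 50% backcross of SAMP8 with CD-1 (Control). SAMP8 is a senescence-accelerated line with memory deficits at this age, and the Control mice, which carry a part of the same genome, have none. The comparisons are those of the untreated lines, and of the treatments within SAMP8.

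In mammals and yeast the exosome has a barrel of subunits that resemble the bacterial nuclease RNase PH but have lost its activity, a cap of RNA-binding subunits at the entry of the barrel, and nucleases attached to it. RNA is threaded through cap and barrel to the nuclease Dis3 or, in the nucleus, meets the nuclease Exosc10. The complex matures ribosomal and other stable RNAs, removes unstable nuclear transcripts and degrades mRNA in the cytoplasm, and inherited changes in several of its human genes cause disorders in which the cerebellum, the pons or motor neurons degenerate.

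A value below is a log2 expression value of 1 probe set on 1 array, and a difference of groups is a difference of such values. For a gene with several probe sets, the tested one of highest mean is called its brightest and stands for it. In all, 23905 probe sets were tested, and 11465 genes had a brightest one. The correlation of an array with the others had a median of 0.922 for Control 4 and 0.905 for AβPP antisense 4, against 0.958 to 0.989 for the other 14. The difference of the 3′ and 5′ probe sets of beta-actin, a measure of RNA integrity, was 3.89 on AβPP antisense 4 and 0.836 to 1.602 on the others. All 12 hippocampal neuron markers passed the filter, with a mean level of 9.63 to 10.91 in AβPP antisense, 10.47 to 10.68 in Random antisense, 10.55 to 10.69 in SAMP8 and 9.99 to 10.82 in Control. On Control 4 the 7 tested leukocyte markers had a median deviation from their own medians over all arrays of 5.09 log2, against -0.55 to 0.60 on the other 15 arrays. With 4 arrays per group the precision is limited, and the p-values weigh a group difference against the spread between arrays within groups. Each array is 1 mouse, so that spread holds differences between mice together with any between samples or arrays. For some differences the value without 1 array is given as well.

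Exosc9, a subunit of the barrel, was the only member called different between the lines (limma adjusted p under 0.05). Its single probe set, 1418462_at, read 7.75, 7.70, 7.79 and 7.60 in SAMP8, against 8.43, 8.59, 8.67 and 8.75 in Control. Every SAMP8 array lay below every Control array. The means were 7.71 ± 0.08 in SAMP8 and 8.61 ± 0.14 in Control (SD, n = 4 each). Exosc9 was thus lower in SAMP8 by a log2 difference of -0.90 (SE 0.11, 95% interval -1.14 to -0.65, limma adjusted p = 0.00127), which is 0.537 times the Control level. An exact two-sided permutation test over the 70 splits of these 8 arrays gave 0.0286, the smallest p that it can give. Any probe set without overlap between these groups gives that p, so it adds nothing to the lack of overlap. The difference rests on 1 probe set compared between lines of different genome, and whether the lines differ in the sequence it detects was not tested. In bulk tissue, fewer cells of a type that expresses a gene and less of its RNA per cell cannot be told apart.

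The count of members lower in SAMP8 was therefore 1 of 9, beside 0.105% of all genes by their brightest probe set. No member was called higher in SAMP8, where 0.122% of genes were. Of the members, 1 had every SAMP8 array below every Control array on its brightest probe set, beside 1.53% of genes, and it was Exosc9. Because the members were chosen with earlier results of these data known, these shares are descriptions and no test of the set.

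The Exosc9 values of the treated SAMP8 mice overlapped those of the untreated ones. AβPP antisense arrays read 8.005, 7.61, 7.79 and 8.01, and Random antisense arrays read 7.49, 7.59, 7.69 and 7.59. The 12 SAMP8 arrays, treated or not, thus ran up to 8.01 at most, and the lowest Control array was at 8.43. Among all genes, 0.34% had all 12 SAMP8 arrays below the 4 of Control on their brightest probe set. Set against Control, the mean of the 3 SAMP8 groups was lower by a log2 difference of -0.89 (SE 0.09, 95% interval -1.09 to -0.69, limma adjusted p = 0.000119). This contrast shares its Control arrays with the one above and mixes line with treatment. In it 1 of 9 members was called lower, beside 0.235% of genes, and that member was again Exosc9. A moderated F test over the 4 groups gave Exosc9 an adjusted p of 0.000909 in limma, and the other 8 members had 0.561 or more on their brightest probe sets.

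**Figure D1:**
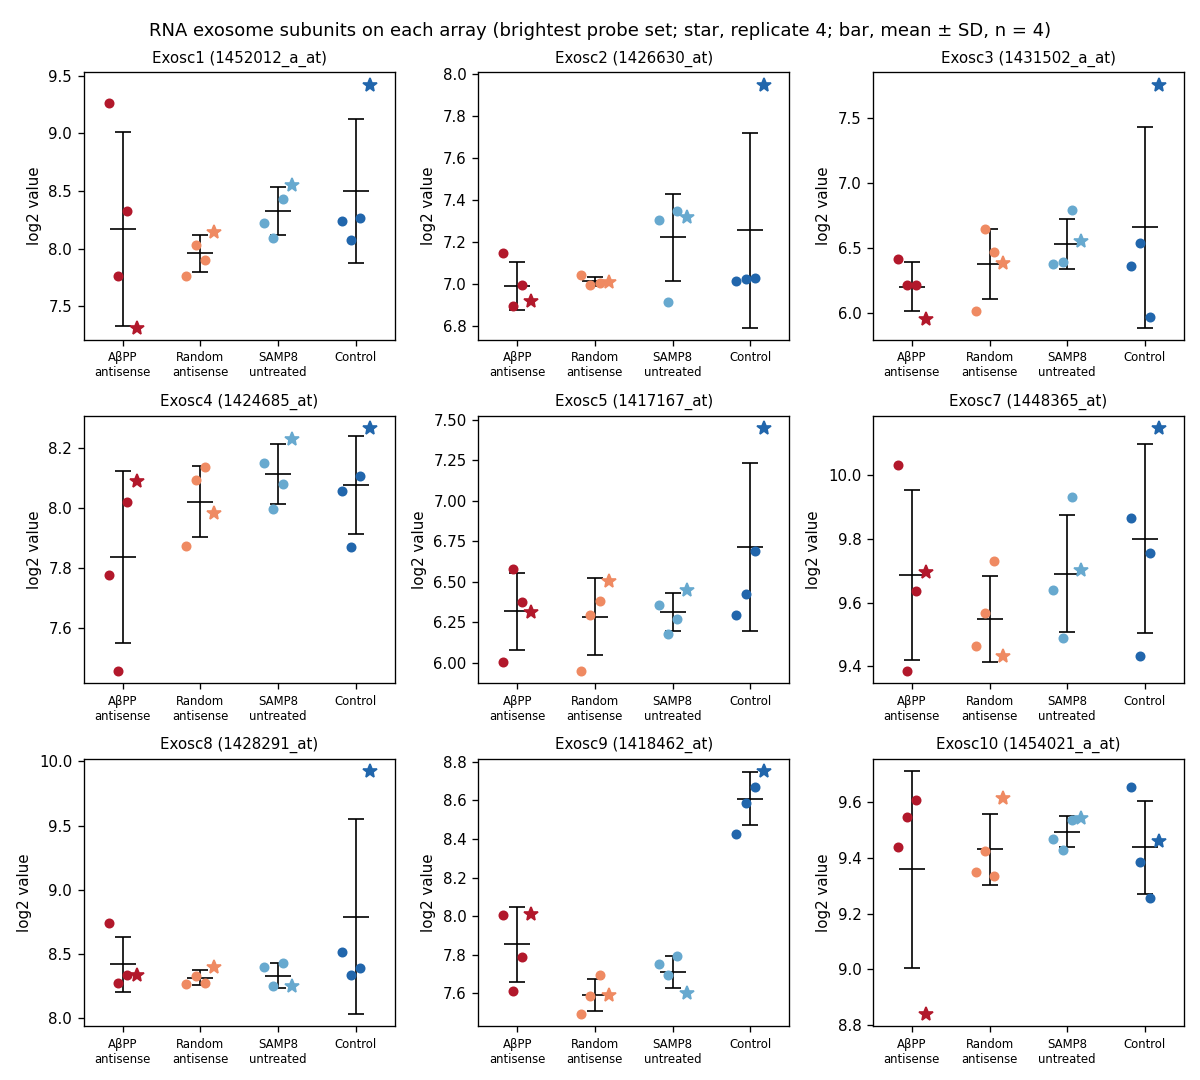
Log2 value (y axis, a scale of its own in each panel) of the brightest probe set of each of the 9 exosome subunits on the 16 arrays, by group on the x axis; points are replicates 1 to 3, the star is replicate 4, and the bars are the mean ± SD of 4 arrays. For Exosc9 the 4 Control arrays, at 8.43 to 8.75, lie above all 12 SAMP8 arrays. For most other subunits the star of Control is the highest point, in some by a small margin.

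Between the treatments, Exosc9 averaged 7.85 ± 0.19 in AβPP antisense and 7.59 ± 0.08 in Random antisense (SD, n = 4 each). The groups overlapped, since AβPP antisense 2, at 7.61, lay below Random antisense 3, at 7.69. The difference of 0.26 (SE 0.11, 95% interval 0.02 to 0.51) did not pass the threshold in limma (unadjusted p = 0.0369, adjusted p = 0.376). Random antisense differed from SAMP8 by -0.12 (95% interval -0.36 to 0.12), and AβPP antisense from SAMP8 by 0.14 (95% interval -0.10 to 0.39, limma adjusted p = 0.591). These 3 estimates were all smaller in size than the difference between the lines.

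Exosc4 is the barrel subunit that sits beside Exosc9 as its direct partner in structures of the human and yeast complexes. Its brightest probe set, 1424685_at, read 8.15, 7.996, 8.08 and 8.23 in SAMP8, against 8.06, 7.87, 8.11 and 8.27 in Control. The groups overlapped along most of their range. The difference was 0.04 (95% interval -0.26 to 0.34, limma adjusted p = 0.999), so a change in Exosc4 as large as that of Exosc9 lies outside its interval, and without Control 4 the difference was 0.10. The other tested probe sets of Exosc4 differed by -0.13 on 1460679_at, or -0.01 without Control 4, and by 0.03 on 1437712_x_at. The latter read 4.03 to 4.09 in SAMP8 and 3.98 to 4.06 in Control, near the filter's 4 log2, so its difference says little about Exosc4. In the AβPP antisense arrays 1424685_at read 7.78, 7.46, 8.02 and 8.09, and in the Random antisense arrays 7.87, 8.09, 8.14 and 7.98. AβPP antisense 2 was the lowest of all 16 arrays, and the difference between the treatments was -0.19 (95% interval -0.48 to 0.11), or -0.06 without that array.

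Exosc8 and Exosc5 form another such pair of barrel subunits. Exosc8, on 1428291_at, read 8.40, 8.25, 8.43 and 8.25 in SAMP8, against 8.52, 8.33, 8.39 and 9.93 in Control. The first 3 Control arrays overlapped the SAMP8 arrays, and Control 4 stood apart from all of them. The difference of -0.46 (95% interval -1.03 to 0.11, limma adjusted p = 0.999) became -0.08 without Control 4. The other Exosc8 probe set, 1420115_at, differed by 0.12, and by 0.27 without Control 4. Exosc5, on 1417167_at, read 6.36, 6.18, 6.27 and 6.45 in SAMP8, against 6.29, 6.42, 6.69 and 7.45 in Control. Control 4 was again the highest array, and Control 3 was the next. The Exosc5 difference of -0.40 (95% interval -0.86 to 0.06) became -0.15 without Control 4.

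Exosc7 is the remaining barrel subunit among the members, and its structural partner Exosc6 had 1 probe set, at 1.84 to 1.92 log2, which did not pass the filter. Exosc7 read 9.64, 9.49, 9.93 and 9.70 in SAMP8, against 9.87, 9.43, 9.76 and 10.15 in Control on 1448365_at. The groups overlapped and differed by -0.11 (95% interval -0.46 to 0.24), and by 0.01 without Control 4. Of the 95% intervals of the other barrel subunits, only that of Exosc8 reached the -0.90 of Exosc9.

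The cap subunits Exosc1, Exosc2 and Exosc3 bind RNA at the entry of the barrel. Exosc3, in whose human counterpart inherited changes cause pontocerebellar hypoplasia, read 6.37, 6.39, 6.79 and 6.56 in SAMP8, against 6.36, 6.54, 5.97 and 7.75 in Control on 1431502_a_at. Exosc2, on 1426630_at, read 7.31, 6.91, 7.35 and 7.32 in SAMP8, against 7.01, 7.03, 7.03 and 7.95 in Control. In both genes the highest array was Control 4. Without it, the other 3 Control arrays of Exosc2 lay below 3 of the 4 SAMP8 arrays.

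Exosc1 read 8.22, 8.09, 8.43 and 8.55 in SAMP8, against 8.24, 8.07, 8.26 and 9.42 in Control on its brightest probe set, 1452012_a_at. The line difference was -0.18 for Exosc1 (95% interval -0.93 to 0.58), -0.03 for Exosc2 (-0.43 to 0.36) and -0.13 for Exosc3 (-0.74 to 0.48). Without Control 4 the 3 differences were 0.13, 0.20 and 0.24, so their sign turned on that array.

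The other tested probe set of Exosc1, 1453359_at, went the other way from the brightest one. It read 6.25, 6.16, 6.42 and 6.29 in SAMP8, against 5.96, 5.47, 6.15 and 5.89 in Control. Every SAMP8 array lay above every Control array, though only just, and 3.23% of probe sets did so. The difference of 0.41 (SE 0.14, limma unadjusted p = 0.0115) did not pass after adjustment (adjusted p = 0.703), and it was 0.42 without Control 4. The treated SAMP8 arrays, at 6.16 to 6.56, also lay above the highest Control array, and 0.644% of probe sets had all 12 SAMP8 arrays above the 4 of Control.

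Exosc10 is the nuclear nuclease of the complex, and 4 tested probe sets carry its symbol. Its brightest, 1454021_a_at, read 9.47, 9.43, 9.54 and 9.55 in SAMP8, against 9.65, 9.38, 9.25 and 9.46 in Control. The difference was 0.06 (95% interval -0.27 to 0.38). The values of 1431832_x_at and 1423587_a_at differed by -0.04 and 0.00, and 1437294_at by 0.60 (95% interval -0.03 to 1.22, limma adjusted p = 0.999), which was 0.29 without Control 4. On 1437294_at the lowest of all 16 arrays was Control 4, at 3.86, where the SAMP8 arrays read 5.30 to 5.56.

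**Figure D2:**
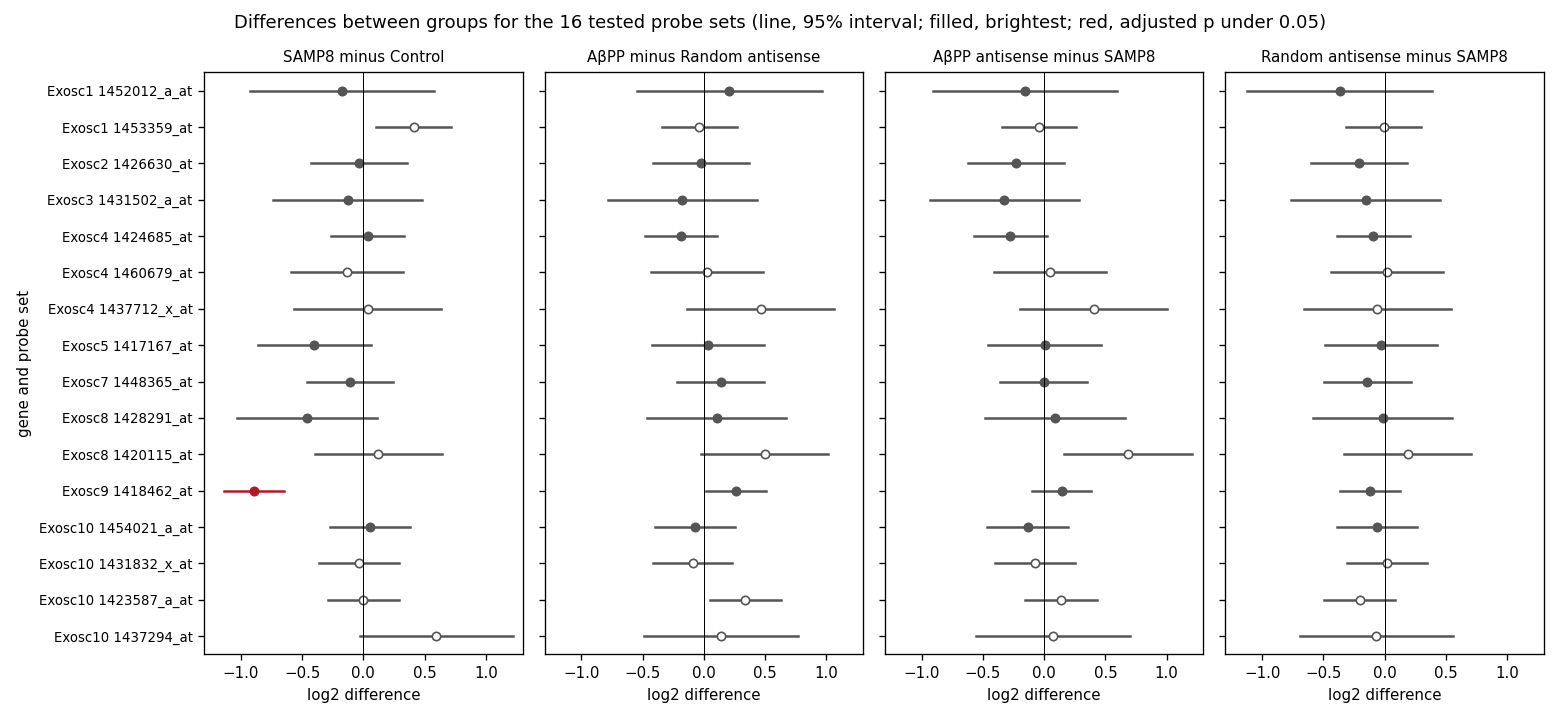
Log2 difference (x axis) of each of the 16 tested exosome probe sets (y axis) in SAMP8 minus Control and in the 3 contrasts within SAMP8; points are limma estimates, lines 95% intervals, filled points the brightest probe set of a gene, and red an adjusted p under the threshold. Exosc9 at -0.90 in SAMP8 minus Control is the only red point.

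The array labelled Control 4 was the highest of the 16 for 8 of the 9 members on their brightest probe sets, and the exception was Exosc10, which was highest on Control 1. Among all genes 18% were highest on Control 4. Of the members' other tested probe sets, Control 4 was the highest array on 1460679_at of Exosc4, at 7.62, but on none of the rest. It read 5.89 on 1453359_at of Exosc1, 7.31 on 1420115_at of Exosc8 and 3.86 on 1437294_at of Exosc10. The median deviation of the members from their own medians over 16 arrays was 0.98 on Control 4, where that of all genes was -0.16. Control 4 exceeded the mean of the other 3 Control arrays by 1.51 for Exosc8, 1.46 for Exosc3, 1.23 for Exosc1, 0.98 for Exosc5 and 0.93 for Exosc2. The excess was 0.47 for Exosc7, 0.25 for Exosc4, 0.19 for Exosc9 and 0.03 for Exosc10. Exosc9 was therefore among the members that this array moved least. These are descriptions of 1 array, with no test.

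**Figure D3:**
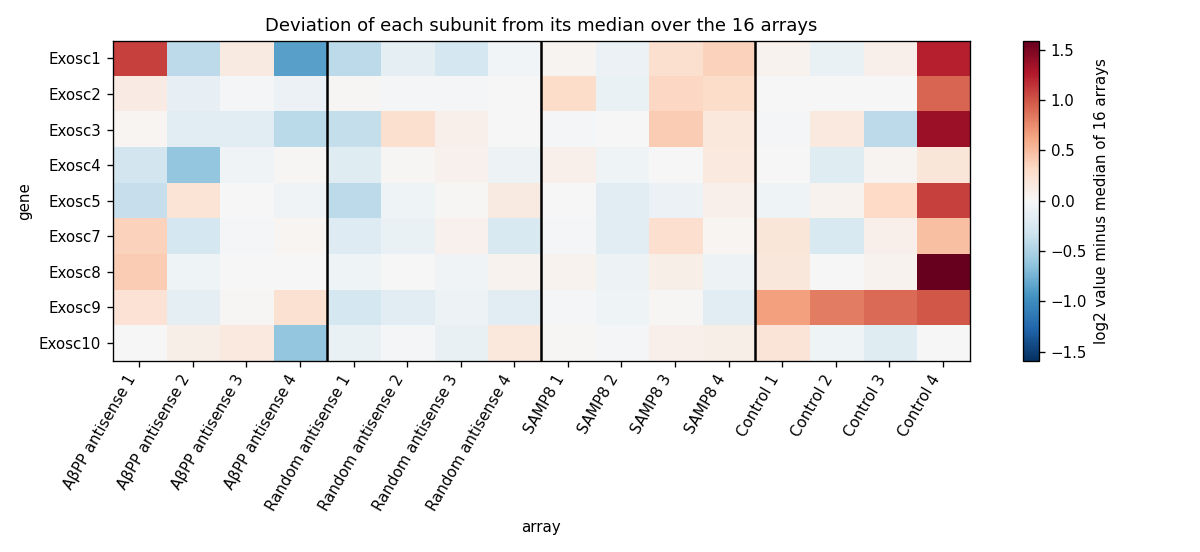
Deviation of the brightest probe set of each subunit (y axis) from its own median over the 16 arrays, in log2 by colour, with the arrays on the x axis and lines between groups. The column of Control 4 is red for nearly all subunits, with a median of 0.98, and the row of Exosc9 is red on all 4 Control arrays.

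The same array carried other marks. The mean level of the 7 tested leukocyte markers, out of 15, was 7.74 to 8.11 in AβPP antisense, 7.02 to 7.54 in Random antisense, 7.37 to 7.49 in SAMP8 and 6.82 to 12.46 in Control, with the highest value on Control 4. Hippocampal neuron markers lay 0.80 below their median there (score -0.80), and microglia markers 0.73 above theirs. The 4 tested blood markers, out of 10, had a mean level of 4.59 to 8.46 in AβPP antisense, 3.43 to 3.68 in Random antisense, 3.26 to 4.95 in SAMP8 and 3.84 to 8.16 in Control. Their part in the exosome values was not tested. The Exosc9 difference without Control 4 was -0.85 (limma adjusted p = 0.00364).

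Over the 9 brightest probe sets, the median SAMP8 minus Control difference was -0.13 and 7 were negative, beside a median of 0.04 and 39.8% negative over all genes. Without Control 4 the members' median was 0.06 and 3 of 9 were negative, beside a median of 0.004 over all tested probe sets. With the treated arrays added, the median was -0.29 and all 9 were negative, beside 41.7% of genes. Without Control 4 that median was -0.04 with 7 of 9 negative, beside a median of 0.003 over all tested probe sets. The share of all genes with a negative difference was not computed without Control 4. The sign of the members' median thus turned without Control 4 in SAMP8 minus Control, and its size shrank with all SAMP8 arrays, while Exosc9 was called in both. Of the members' 16 tested probe sets, 9 were negative in SAMP8 minus Control and 12 with all SAMP8 arrays. In the latter the others were 1437294_at of Exosc10 (0.60), 1420115_at of Exosc8 (0.41), 1453359_at of Exosc1 (0.39) and 1437712_x_at of Exosc4 (0.15). By the mean of a gene's probe sets, 7 of 9 were negative there, with a median of -0.16.

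**Figure D4:**
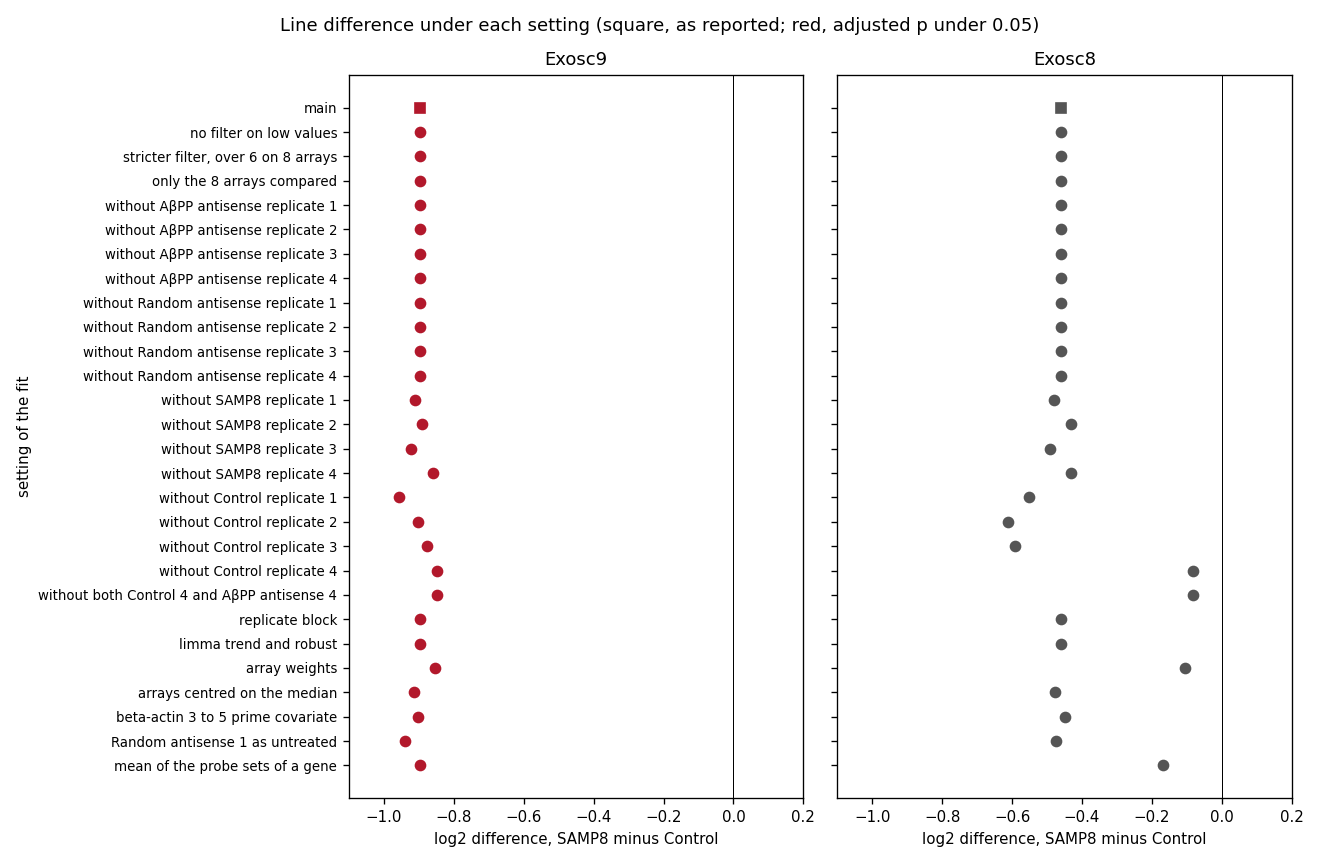
Log2 difference SAMP8 minus Control (x axis) of Exosc9, left, and Exosc8, right, under each setting of the fit (y axis); the square is the value as reported and red marks an adjusted p under the threshold. Exosc9 stays between -0.96 and -0.85 and is red throughout, and Exosc8 moves to -0.08 without Control 4.

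Treatment with AβPP antisense was compared with Random antisense to ask what the AβPP sequence adds. No exosome gene was called in limma, 0 of 9, beside 0.0262% of genes, and at an unadjusted p under 0.05 there was 1, Exosc9, beside 8.84%. The members' differences ran from -0.19 for Exosc4 to 0.26 for Exosc9, with a median of 0.03 beside 0.04 over all genes. That median was 0.10 without AβPP antisense 4 and -0.08 without AβPP antisense 1, so its sign turned on single arrays. Exosc1 was the most spread within the AβPP antisense group, at 9.26, 7.76, 8.33 and 7.32, against 7.77, 8.03, 7.90 and 8.14 in Random antisense. AβPP antisense 1 and 4 lay above and below every Random antisense array. The Exosc1 difference was 0.21 (95% interval -0.55 to 0.96), or 0.49 without AβPP antisense 4 and -0.16 without AβPP antisense 1.

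The remaining barrel subunits overlapped between the treatments. Exosc7 read 10.03, 9.39, 9.63 and 9.70 in AβPP antisense, against 9.46, 9.57, 9.73 and 9.43 in Random antisense, a difference of 0.14 (95% interval -0.22 to 0.49). Exosc8 read 8.74, 8.27, 8.34 and 8.33 in AβPP antisense, against 8.26, 8.33, 8.28 and 8.40 in Random antisense, a difference of 0.10 (95% interval -0.46 to 0.67). AβPP antisense 1 was the highest treated array in both genes, and without it the differences were 0.02 for Exosc7 and -0.00 for Exosc8. Exosc5 read 6.003, 6.58, 6.37 and 6.31 in AβPP antisense, against 5.95, 6.30, 6.38 and 6.51 in Random antisense, a difference of 0.03 (95% interval -0.43 to 0.49). For Exosc5 array 1 was the lowest of each group, and leaving out 1 array put the difference between -0.08 and 0.14.

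The cap subunits Exosc2 and Exosc3 overlapped as well. Exosc2 read 7.15, 6.89, 6.99 and 6.92 in AβPP antisense, against 7.04, 6.99, 7.01 and 7.01 in Random antisense, a difference of -0.02 (95% interval -0.42 to 0.37). The 4 Random antisense arrays of Exosc2 lay within the range of the AβPP antisense arrays. Exosc3 read 6.42, 6.22, 6.22 and 5.95 in AβPP antisense, against 6.01, 6.64, 6.47 and 6.38 in Random antisense, a difference of -0.17 (95% interval -0.78 to 0.43). Leaving out 1 array put it between -0.30 and -0.09. For Exosc3 the lowest treated array was AβPP antisense 4 and the highest Random antisense 2. Exosc10, on its brightest probe set, read 9.44, 9.55, 9.61 and 8.84 in AβPP antisense, against 9.35, 9.42, 9.34 and 9.62 in Random antisense.

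One secondary probe set of Exosc10, 1423587_a_at, read 7.84, 7.52, 7.56 and 7.35 in AβPP antisense, against 7.30, 7.29, 7.16 and 7.15 in Random antisense. Every AβPP antisense array lay above every Random antisense array, as for 3.87% of probe sets. The difference of 0.34 (SE 0.14) was not called (limma unadjusted p = 0.0253, adjusted p = 0.344), and it was 0.41 without AβPP antisense 4. The other 3 probe sets of Exosc10 differed by -0.07, -0.09 and 0.14. On the brightest one AβPP antisense 4, at 8.84, was the lowest of all 16 arrays, and without it the difference was 0.10. A probe set of Exosc4, 1437712_x_at, read 5.72 on AβPP antisense 4 and 3.86 to 4.09 on all others, so that its difference of 0.47 was 0.05 without that array.

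Against untreated SAMP8, 0 of 9 exosome genes were called in AβPP antisense, beside 0.0959% of genes, and 0 at an unadjusted p under 0.05 on brightest probe sets, beside 10% of genes. Their median difference was -0.14, beside 0.03 over all genes, with a range of -0.33 for Exosc3 to 0.14 for Exosc9. The members' median was 0.00 without AβPP antisense 4 and -0.21 without AβPP antisense 3. The probe set 1420115_at of Exosc8 read 7.25, 7.69, 7.32 and 8.49 in AβPP antisense, against 7.10, 7.01, 7.03 and 6.86 in SAMP8. All 4 treated arrays lay above the untreated ones, as for 3.55% of probe sets. The difference of 0.68 (SE 0.24, limma unadjusted p = 0.0133, adjusted p = 0.224) was 0.42 without AβPP antisense 4, and the brightest Exosc8 probe set differed by 0.09. Against Random antisense 1420115_at differed by 0.50, and by 0.23 without AβPP antisense 4. This contrast shares the AβPP antisense arrays with the one above.

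On AβPP antisense arrays 1 to 4 the choroid plexus markers had scores of -2.27, -2.08, -2.22 and -0.49, and the thalamus markers -1.85, -0.26, -1.70 and 0.12, a score being the median deviation of a list from its medians over 16 arrays. Their mean levels were 5.32 to 6.86 and 7.94 to 9.95 in AβPP antisense, against 7.62 to 8.71 and 9.88 to 10.01 in SAMP8, over 10 of 12 choroid plexus and 10 of 10 thalamus markers. Their part in the exosome values was not tested.

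Random antisense against SAMP8 gave no call among the members, 0 of 9, where 0% of genes were called and 1.04% had an unadjusted p under 0.05 in limma. None of the 9 had an unadjusted p under 0.05. All 9 brightest probe sets had a negative difference, beside 53.4% of genes. They ranged from -0.37 for Exosc1 to -0.02 for Exosc8, with a median of -0.12. Of the 16 tested probe sets of the members, 13 were negative. The others were 1420115_at of Exosc8 (0.19), 1460679_at of Exosc4 (0.02) and 1431832_x_at of Exosc10 (0.02). By the mean of a gene's probe sets, 8 of 9 were negative. Without Random antisense 1 the median of the 9 brightest was -0.04 and 7 of 9 were negative, beside a median of -0.01 over all tested probe sets. With Random antisense 1 counted as untreated, as 1 of its labels says, 5 of the 9 were negative and the median was -0.01. The median over all tested probe sets was then also -0.01. For these fits the share of all genes with a negative difference was not computed.

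The genes that work with the exosome were described from lists: 3 further core genes, 14 nuclear cofactors, 10 cytoplasmic cofactors and 8 related nucleases. None was called in limma in any of the 5 contrasts, on any tested probe set. Of all 23905 tested probe sets, 86 were called in SAMP8 minus Control and 211 in all SAMP8 minus Control. The calls were 20 in AβPP antisense minus Random antisense, 69 in AβPP antisense minus SAMP8 and 0 in Random antisense minus SAMP8. Calls were thus rare throughout, and their lack here is no result about these genes. Of the core list, Dis3, the catalytic subunit, and Dis3l, its cytoplasmic relative, had SAMP8 minus Control differences of -0.40 (SE 0.28) and -0.29 (SE 0.16). The lists' median differences in that contrast were -0.35 over the 2 tested core genes, -0.05 over 14 nuclear cofactors, -0.16 over 10 cytoplasmic cofactors and 0.02 over 8 nucleases. In the last 3 of these lists the smallest unadjusted p belonged to Mtrex, the nuclear helicase that feeds the exosome (-0.39 on 1447517_at, but 0.02 on its brightest), to Zfp36l2, which binds AU-rich elements in mRNA (-0.65), and to Isg20l2, a nucleolar nuclease (-0.36). They were followed by Pabpn1, the nuclear poly(A) binding protein (0.15 on 1415728_at, but -0.08 on its brightest), Wdr61, of the cytoplasmic Ski complex (0.36 on 1454954_at and 0.01 on its brightest), and Eri1, a nuclease of histone mRNA and small RNA (-0.50).

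In AβPP antisense minus Random antisense the smallest unadjusted p among these genes was that of Hbs1l, whose longer product acts in ribosome rescue and whose short form, in human cells, bridges the exosome and the Ski complex. Its probe set 1453604_a_at differed by -1.53 (SE 0.37, limma adjusted p = 0.139), while its brightest, 1421029_a_at, differed by 0.09 and 1440050_at by -0.38. Against SAMP8 the 1453604_a_at difference was -1.61 (limma adjusted p = 0.0909). Ncbp2, of the nuclear cap binding complex, differed from Random antisense by -0.55 on 1450847_at and 0.02 on its brightest probe set. Zcchc7, an RNA-binding protein of the nuclear TRAMP complex, differed by 0.36 on 1417321_at and -0.08 on its brightest. Pnpt1, the mitochondrial relative of the barrel proteins, differed by 0.49 on its brightest probe set (adjusted p = 0.321) and 0.63 on 1444288_at. Ttc37, of the Ski complex, differed by 0.17, Rexo2, a mitochondrial nuclease of very short RNA, by 0.29, Dis3 by 0.24 and Dis3l by 0.09.

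For Exosc9, the 5 single-symbol probe sets whose values followed it most closely over the 16 arrays were those of Usp7 (1438249_at, Pearson r = 0.952), Kazn (1435624_at, 0.943), Gnb1 (1425908_at, 0.936), Kcnq5 (1441071_at, 0.931) and Apod (1444564_at, 0.931). All 16 points share the 4 groups, and the likeness is mainly that of Control against the rest. Spearman's rho was 0.721, 0.594, 0.526, 0.497 and 0.376 in the same order. Usp7, a deubiquitinase, averaged 6.52 in SAMP8 and 8.20 in Control, and 6.88 and 6.54 in AβPP antisense and Random antisense. The other 4 had SAMP8 means under the filter's 4 log2, from 1.89 for Apod to 3.33 for Kazn, and passed it through Control, so their difference follows from the filter in part. None of the 5 lies on chromosome 3, where Exosc9 does.

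On chromosome 3, in the RefSeq order of genes on GRCm38.p6, the neighbour Ccna2, which encodes cyclin A, overlaps Exosc9, and its 2 probe sets did not pass the filter. Among the 5 nearest annotated genes on each side, only Bbs7, a component of the BBSome of cilia, was tested. Bbs7 averaged 8.48 in SAMP8 and 7.64 in Control, a difference of 0.84 (SE 0.24, limma adjusted p = 0.372), opposite in sign to that of Exosc9. Among the 10 nearest measured genes on each side, a range chosen after values were seen, no gene was called in SAMP8 minus Control. Cetn4, a centrin, differed by -0.70 (limma adjusted p = 0.177), and was called lower, by -0.74, with all SAMP8 arrays against Control (adjusted p = 0.0196). Bbs12, which helps to assemble the BBSome, differed by -0.78 in SAMP8 minus Control (limma adjusted p = 0.690).

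**Figure D5:**
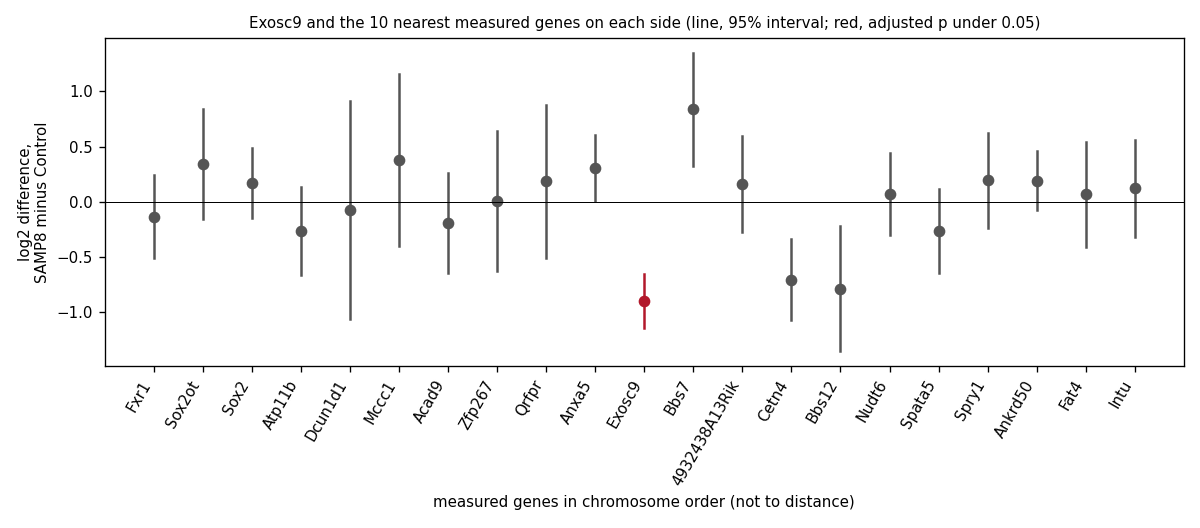
Log2 difference SAMP8 minus Control (y axis) of Exosc9 and of the 10 nearest measured genes on each side on chromosome 3 (x axis, in chromosome order and not to distance); points are limma estimates of the brightest probe set, lines 95% intervals, and red an adjusted p under the threshold. Exosc9 at -0.90 is red, and its next measured neighbours Anxa5 at 0.31 and Bbs7 at 0.84 lie above 0.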

How the data were processed

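The deposited log2 values were made by the authors with GCRMA, per the submitters' processing notes (version not given in the sources used here). Each array carried biotinylated cRNA made from 4 μg of hippocampal total RNA of 1 mouse, per the labels' protocols. Of 45101 probe sets, 64 controls were removed, and 23905 entered the tests, those over 4 log2 on at least 4 of the arrays. Gene symbols come from GEO's platform annotation (34945 probe sets with 1 symbol, 932 with several, 9160 with none), and gene order from RefSeq's table on GRCm38.p6; neither labels nor files state a build for the probe sets.

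Groups were compared with limma 3.58.1 in R 4.3.3 in a one-way layout of 4 groups on 16 arrays (residual degrees of freedom 12, prior 2.63), with Benjamini-Hochberg adjustment over all tested probe sets and a threshold of 0.05. The script was tested on simulated data. All probe sets of the members were named, whatever their result; of each list, called genes or else the 2 of smallest p; of a called member, the 5 probe sets most alike in Pearson correlation and the 5 nearest genes on each side. The members and lists were chosen with earlier results of these data known. A label of Random antisense 1 says that it was untreated, against its title, source and description; it was kept with Random antisense. Replicate numbers recur across groups, but deviations from group means of the 24 same-numbered pairs of arrays correlated at -0.275 to 0.236 (median 0.0366), and 9 were over 0.1, so the numbers were not taken to pair the mice. Alternatives changed the filter, the arrays in the fit, the variance model, the scaling between arrays, covariates and the choice of probe set. Figures were drawn with matplotlib 3.10.9 in Python 3.11.15. Memory scores were not analysed here.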

Additional observations from a re-analysis of the deposited data

Results flagged for a closer look

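Of 72 groups of 4 arrays (18 probe sets in 4 groups), 11 held an array far from its other 3. The nominal rate of this rule is about 1 in 20. The groups share arrays, and some share a gene, so they are not independent. The share of such groups over all probe sets was not computed, so the 11 show no excess particular to the members. Among all genes, Control 4 was the highest array for 18% and the lowest for 31.1%. Of the 11, 3 were on Control 4. Exosc1 1452012_a_at read 9.42 there, against 8.07 to 8.26 on the other Control arrays. Exosc2 1426630_at read 7.95 there (others 7.01 to 7.03), and Exosc8 1428291_at read 9.93 (others 8.33 to 8.52). On AβPP antisense 4 there were 2: Exosc4 1437712_x_at read 5.72 (others 4.04 to 4.05), and Exosc2 1446994_at, below the filter, read 2.07 (others 1.99 to 2.00).

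The other 6 were spread over the groups. Exosc8 1428291_at read 8.74 on AβPP antisense 1 (others 8.27 to 8.34), Exosc1 1453359_at read 6.56 on Random antisense 3 (others 6.16 to 6.20), and Exosc8 1420115_at read 7.45 on Random antisense 4 (others 7.07 to 7.13). Exosc2 1426630_at read 6.91 on SAMP8 2 (others 7.31 to 7.35), and Exosc10 1431832_x_at read 8.61 there (others 8.72 to 8.74). Exosc2 1446994_at, below the filter, read 2.05 on Control 2 (others 1.97 to 1.98). No Exosc9 value was among the 11.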

How the results depend on the processing

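Exosc9 was called lower in SAMP8 than in Control under all 27 alternatives, at -0.96 to -0.85 with adjusted p of 1.57e-05 to 0.018, and without each array in turn the adjusted p was 0.000645 to 0.00811. Many of these alternatives, such as the filters or leaving out a treated array, cannot change the difference of -0.90, only its adjusted p. With all SAMP8 arrays the difference was -0.95 to -0.84. The replicate block left the difference at -0.90 (adjusted p = 0.00699) and -0.89 with all SAMP8 arrays (adjusted p = 0.000992), and changed no other member's call; of 16 arrays, 5 correlated best with their own number. No other member was called in any of the 5 contrasts under these alternatives, by its brightest probe set or the mean of its probe sets.

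The count of called probe sets over the whole table was 86 in SAMP8 minus Control and 20, 69 and 211 in AβPP antisense minus Random antisense, AβPP antisense minus SAMP8 and all SAMP8 minus Control. Leaving out 1 array gave 54 to 115, 11 to 895, 16 to 1286 and 139 to 330, with 895 and 1286 without AβPP antisense 3. It became 53, 12 and 45 in the first 3 contrasts under the stricter filter (over 6 log2 on 8 arrays), 37, 0 and 5 with only the 8 arrays compared, and 31 in AβPP antisense minus SAMP8 with no filter. Array weights gave 295, 35 and 486 in SAMP8 minus Control, AβPP antisense minus Random antisense and all SAMP8 minus Control, and 19 in Random antisense minus SAMP8, otherwise 0. Without both Control 4 and AβPP antisense 4 the antisense contrasts had 199 and 407, and AβPP antisense minus Random antisense had 59 with the beta-actin covariate and 13 with Random antisense 1 as untreated. The mean of a gene's probe sets gave 23, 7, 22 and 79 of 11465 genes. The cause of these shifts was not tested.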
